A study of Mus musculus with 12 samples.

Results

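This account covers 4 protein tyrosine phosphatases and 4 cytoplasmic tyrosine kinases measured in hippocampal microglia of young mice. The phosphatases were Ptprc, Ptpn6, Ptpn2 and Ptpn22, and the kinases were Src, Fyn, Abl1 and Ptk2. The genes were taken by name from the raw count table of an immune panel, in which all 8 were found among 545 endogenous genes. Microglia, the resident macrophages of the brain, came from the hippocampus of male Balbc mice on postnatal day 28 by Percoll gradient and flow sorting. The control group held 6 mice. The other group held 6 mice that had undergone brief daily separation (BDS), in which pups spent 15 min of each day apart from the mother, from day 1 to day 21 after birth. All 12 mice came from different litters according to the design text, so the spread within a group holds differences between animals as well as technical error. Every mouse was of the same strain, sex and age. Each sample was hybridized to NanoString nCounter probes, which count a fluorescent barcode for each transcript.

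Tyrosine kinases add phosphate to tyrosine residues of proteins and tyrosine phosphatases remove it, and the balance of the opposed reactions sets how strongly immune receptors signal. Src-type kinases start signalling from Fc receptors, other immunoreceptors and integrins. Ptprc encodes CD45, a transmembrane phosphatase of all nucleated blood-lineage cells that removes an inhibitory phosphate from the tail of Src-type kinases. In microglia these enzymes act below receptors for antibodies, adhesion and phagocytosis. CD45 is also widely used as a surface marker to sort microglia. The markers used for sorting here are not named in the labels, so whether Ptprc took part in choosing the cells is not known.

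The samples differed in depth. Total counts were 893936 to 1409376 in controls and 641756 to 1171355 in BDS. Counts were divided by a factor from 6 housekeeping genes of the same sample, giving normalized counts. That factor ran from 0.875 to 1.47 in controls, and was 0.609, 0.649 and 0.854 in BDS 21, BDS 25 and BDS 55. Their count ratios of Rpl19 to Polr2a, housekeeping genes not used for the factor, reached 0.790, 0.606 and 0.465, while the remaining 9 samples had 0.113 to 0.267. Fold changes of the 8 genes, and the ratios described between them, are therefore also given without these 3 samples. The microglial genes Cx3cr1, Csf1r and Itgam were above background in 12 of 12 samples. Cd3d and Cd3e of T cells and Cd163 of border macrophages were above background in 0 of 12. Background was the mean plus 2 SD of the 8 negative-control probes of the sample.

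None of the 8 genes passed the adjusted threshold of 0.05 between BDS and control (edgeR quasi-likelihood test, adjusted over 357 genes), where 0 genes in all passed (0% of those tested). At an unadjusted p under 0.05 there was 1 gene of the 8, Ptprc, against 12.3% of all genes tested (44 of 357, with 41 lower and 3 higher in BDS). DESeq2 with the same scaling called 6 genes past the adjusted threshold. It gave Ptprc and Ptpn6 adjusted p-values of 0.14 and 0.75, and left the other 6 of the 8 without an adjusted p, so these could not be called there. Of the 8 genes, 6 had log2 fold changes below 0, where 66.1% of all genes did. The median over the 8 was -0.10, and the median of all genes tested was also -0.10. Both figures lay near those of the whole panel. The groups overlapped for each of the 8 genes, and were without overlap for 1.12% of all genes tested. Scaling by TMM, which sets the level by the tested genes themselves, brought the 2 medians to -0.0068 and -0.0093, the 8 genes to 4 below 0, and the panel to 14 lower and 18 higher genes at an unadjusted p under 0.05.

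**Figure D1:**
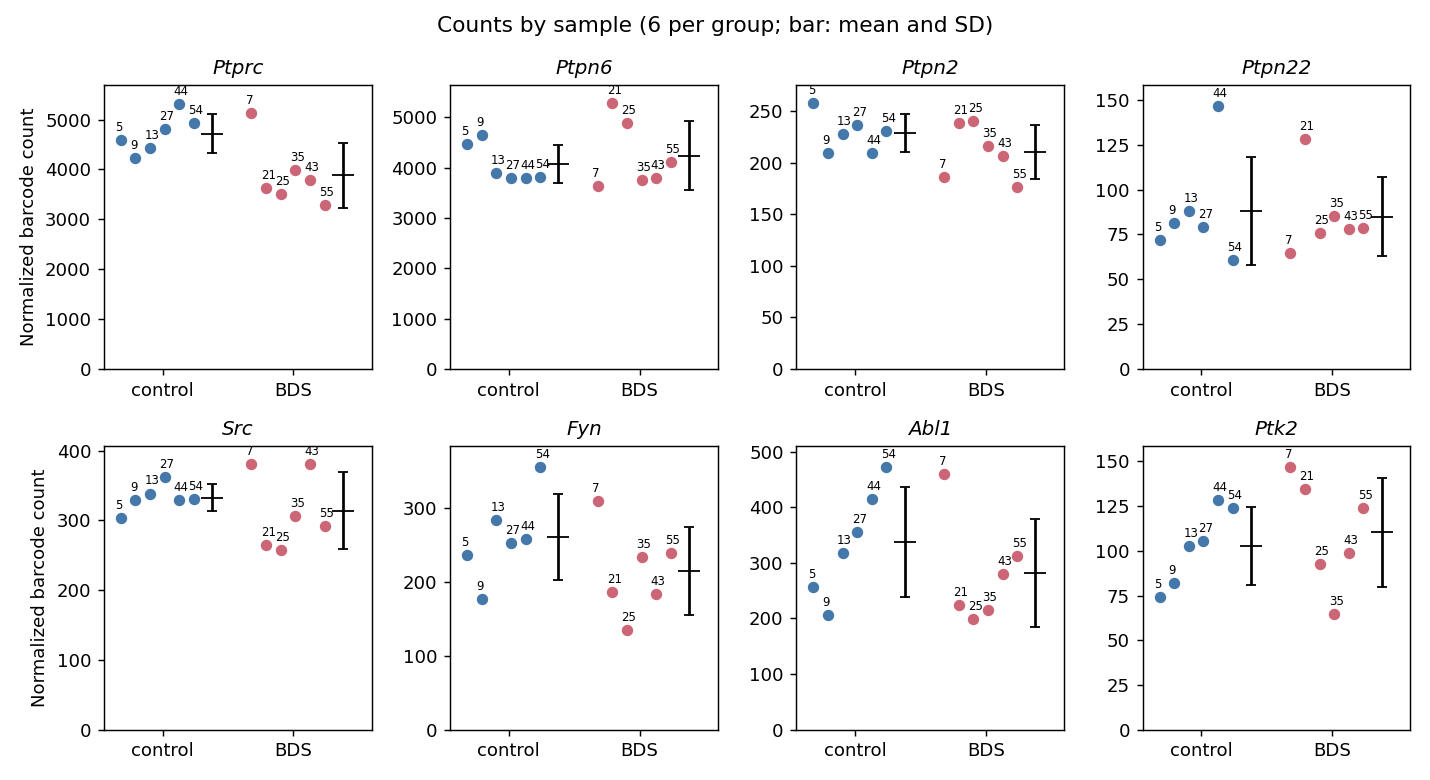
Normalized barcode counts (linear axes from 0) of the 4 phosphatases (upper row) and 4 kinases (lower row) in 6 control and 6 BDS samples, numbered as in the labels, with the mean and SD of each group as a bar. For Ptprc, 5 of the 6 BDS points lie below the lowest control, with BDS 7 at 5125; in the other panels the groups overlap more widely.

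Ptprc, the gene of CD45, had the smallest p-value of the 8. Its normalized counts in controls 5, 9, 13, 27, 44 and 54 were 4586, 4231, 4438, 4801, 5319 and 4935. In BDS 7, 21, 25, 35, 43 and 55 they were 5125, 3622, 3510, 3983, 3792 and 3286. Thus 5 of 6 BDS samples lay below the lowest control, as in 6.44% of all genes tested, and BDS 7 lay above all controls but control 44. The means were 4718 ± 387 in controls and 3887 ± 652 in BDS (SD, n = 6), a log2 fold change of -0.28 ± 0.10 (SE; edgeR, unadjusted p = 0.017, adjusted p = 0.27). Before scaling the means of the raw counts were 5427 and 3644. This gene ranked 23 of 357 by p-value.

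The size of the Ptprc difference depended on which BDS samples entered. Without BDS 7 the log2 fold change was -0.37 and passed the threshold (edgeR, adjusted p = 0.047), beside an adjusted p of 0.24 to 0.60 with any other sample left out. Without BDS 7, 95 of 351 genes had an unadjusted p under 0.05. It was -0.13 with BDS 21, BDS 25 and BDS 55 left out (edgeR, unadjusted p = 0.24). In that comparison BDS 35 and BDS 43, whose housekeeping factors of 1.02 and 1.28 lay within the control range, still lay below every control, and BDS 7 did not. With the Rpl19 to Polr2a ratio as a covariate the log2 fold change was -0.10 (edgeR, unadjusted p = 0.26). With TMM scaling it was -0.19 (edgeR, unadjusted p = 0.039, adjusted p = 0.52). The part of RNA amount or quality in this difference was not tested. In bulk samples fewer cells of a type and less RNA per cell cannot be told apart.

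Ptpn6 encodes SHP-1, a phosphatase with SH2 domains that is recruited by inhibitory receptors of leukocytes. Its normalized counts in controls, in the same order as above, were 4478, 4639, 3892, 3794, 3796 and 3815. In the BDS samples they were 3628, 5288, 4881, 3752, 3786 and 4104. The BDS samples fell on both sides of the controls, with BDS 21 and BDS 25 above every control and BDS 7, 35 and 43 below every control. The means of 4069 ± 384 and 4240 ± 685 (SD, n = 6) gave a log2 fold change of 0.059 ± 0.11 (SE; edgeR, adjusted p = 0.78). Its sign turned to -0.13 without BDS 21, BDS 25 and BDS 55, to -0.014 without BDS 21 alone and to -0.17 with the Rpl19 to Polr2a ratio as a covariate (edgeR, unadjusted p = 0.028, adjusted p = 0.79). The 3 BDS samples of lowest housekeeping count thus held the highest Ptpn6 values of their group and the lowest Ptprc values.

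The ratio of Ptprc to Ptpn6 within a sample is free of the scaling factor. As a log2 ratio it was 0.034, -0.13, 0.19, 0.34, 0.49 and 0.37 in the controls. In BDS 7, 21, 25, 35, 43 and 55 it was 0.50, -0.55, -0.48, 0.086, 0.0024 and -0.32. BDS 21, BDS 25 and BDS 55 lay below every control, BDS 7 lay above every control, and BDS 35 and BDS 43 lay within the control range. The group means of 0.21 ± 0.23 and -0.13 ± 0.40 (SD, n = 6) differed by -0.34, and by -0.019 without the 3 samples of low housekeeping count. No test was made of this ratio.

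**Figure D2:**
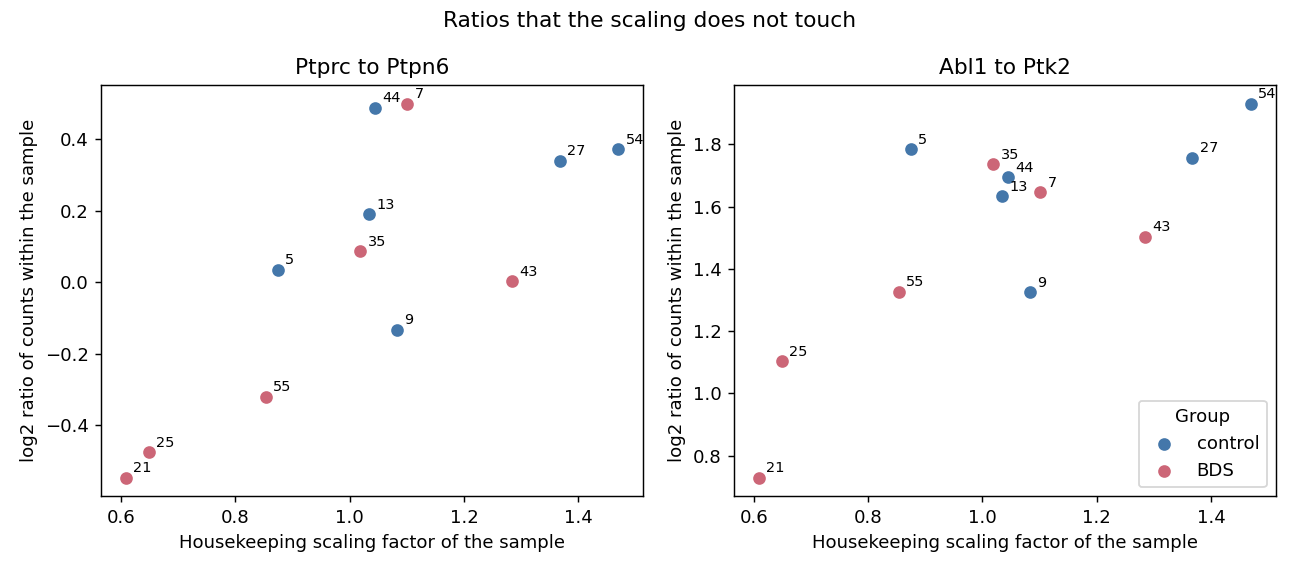
Log2 ratio of counts within a sample (vertical axes) for Ptprc to Ptpn6 and for Abl1 to Ptk2 against the housekeeping scaling factor of that sample (horizontal axes), with 6 control and 6 BDS samples numbered as in the labels. BDS 21 and BDS 25, with factors of 0.609 and 0.649, hold the lowest values in both panels.

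Promoter windows of Ptprc and Ptpn6 are shown because these genes had the highest counts of the 8 and went opposite ways in BDS 21 and BDS 25. Each window is the 250 bases before the most upstream start listed by RefSeq for GRCm38.p6, on the minus strand, at chr1:138175306-138175555 for Ptprc and chr6:124738710-124738959 for Ptpn6. Capitals mark GAGGAA, a core recognised by the myeloid factor PU.1, searched on both strands (TTCCTC on the other strand).
Ptprc: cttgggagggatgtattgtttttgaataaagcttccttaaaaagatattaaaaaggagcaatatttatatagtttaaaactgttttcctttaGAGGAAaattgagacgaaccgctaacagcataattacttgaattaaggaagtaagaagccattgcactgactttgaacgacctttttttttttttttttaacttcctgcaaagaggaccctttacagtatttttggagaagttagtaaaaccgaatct
Ptpn6: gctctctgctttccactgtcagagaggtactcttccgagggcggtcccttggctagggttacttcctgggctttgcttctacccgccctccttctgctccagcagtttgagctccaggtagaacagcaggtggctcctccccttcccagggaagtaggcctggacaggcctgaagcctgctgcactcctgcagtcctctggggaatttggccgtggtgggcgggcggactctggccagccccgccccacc
The Ptprc window held 1 match, 158 bases before the start, and the Ptpn6 window held 0. Another Ptprc window, before a start listed further downstream and not shown, also held 0. Of 32851 windows of this length in the table, 23.3% held the motif, and of 9 windows kept for 6 of the 8 genes, 5 did. These 9 are not independent, since Abl1, Ptpn22 and Ptprc each have more than 1, and those of Abl1 and of Ptprc overlap. For the 8 genes 1 chromosome was left out, which was not done for the 32851 windows. No window of Ptpn2 or Ptk2 is among the 9. A match is a description of the letters only.

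Ptpn2 encodes TC-PTP, a phosphatase that acts on JAK kinases and STAT factors. Its normalized counts were 258, 210, 228, 237, 210 and 231 in the controls and 186, 238, 240, 216, 206 and 177 in the BDS samples. BDS 7, 43 and 55 lay below the lowest control and the other 3 lay within the control range. The means were 229 ± 18.3 and 211 ± 26.2 (SD, n = 6), a log2 fold change of -0.12 ± 0.11 (SE; edgeR, adjusted p = 0.61). This gene and Ptprc kept a log2 fold change below 0 in all 27 alternatives that were run, from -0.21 to -0.025 for Ptpn2. Its log2 ratio to Ptpn6 was -4.15 ± 0.17 in controls and -4.33 ± 0.16 in BDS (SD, n = 6), with BDS 21 and BDS 55 below every control. The difference of -0.17 was -0.050 with BDS 21, BDS 25 and BDS 55 left out, and the log2 fold change of Ptpn2 itself was then -0.17 (edgeR, adjusted p = 0.90).

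Ptpn22 encodes a phosphatase that opposes Src-type and Syk-type kinases in lymphocytes and is also found in myeloid cells. Its raw counts were 49 to 153, at least 2.45 times the background limit of the sample. The normalized counts were 72.0, 81.3, 88.0, 79.0, 146 and 60.5 in controls and 64.5, 128, 75.5, 85.4, 77.9 and 78.5 in BDS. Control 44 and BDS 21 stood above the other 5 samples of their groups, and all 6 BDS samples lay within the control range. The means were 87.9 ± 30.2 and 85.0 ± 22.2 (SD, n = 6), a log2 fold change of -0.056 ± 0.22 (SE; edgeR, adjusted p = 0.89) that was 0.15 without control 44, 0.046 with TMM scaling and -0.21 with BDS 21, BDS 25 and BDS 55 left out. The summed level of 7 NK cell markers was also highest in control 44, at 506 normalized counts, against a lowest control of 248 and a BDS range of 225 to 319. Of those 7 markers 2 were above background in no sample. Among those tested, Prf1 varied most in controls, at 125 ± 99.8 normalized counts (SD, n = 6). Klrd1, Klrk1 and Gzma were at 97.6 ± 17.3, 41.8 ± 4.12 and 18.9 ± 4.63 in controls. The part of other cells in the Ptpn22 values was not tested.

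Src, the founding member of its kinase family, acts downstream of integrins and receptor kinases. Its normalized counts were close together in controls, at 303, 330, 338, 363, 329 and 331. In BDS 7, 21, 25, 35, 43 and 55 they were 381, 264, 257, 306, 381 and 292. BDS 7 and BDS 43 lay above every control and BDS 21, 25 and 55 lay below every control, so the BDS values were spread to both sides. The means of 332 ± 19.2 and 314 ± 55.3 (SD, n = 6) gave a log2 fold change of -0.079 ± 0.12 (SE; edgeR, adjusted p = 0.73). The sign turned to 0.012 with TMM scaling and to 0.10 without BDS 21, BDS 25 and BDS 55. The coefficient of variation of Src was 5.78% in controls, near the 5.19% that counting error alone gives, and 17.6% in BDS, where counting error gives 5.99%.

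Fyn, a Src-family kinase of lymphocytes, neurons and myeloid cells, had normalized counts of 237, 177, 284, 254, 258 and 356 in controls. In BDS they were 310, 187, 136, 234, 185 and 240. Only BDS 25 lay below the lowest control, and the other 5 BDS samples lay within the control range. The means were 261 ± 58.6 and 215 ± 59.9 (SD, n = 6), a log2 fold change of -0.28 ± 0.19 (SE; edgeR, adjusted p = 0.51). Its fold change was thus about that of Ptprc with a wider error. It was -0.41 without BDS 7 (edgeR, unadjusted p = 0.041, adjusted p = 0.17) and -0.11 with BDS 21, BDS 25 and BDS 55 removed. Within a sample, the log2 ratio of Fyn to Src was -0.38 ± 0.33 in controls and -0.57 ± 0.33 in BDS (SD, n = 6), with BDS 25 and BDS 43 below every control. Its difference of -0.20 was also -0.20 with BDS 21, BDS 25 and BDS 55 removed together. With single samples left out it ran from -0.30 without control 9 to -0.10 without control 54 or BDS 43, and was -0.13 without BDS 25.

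Abl1 encodes a cytoplasmic and nuclear tyrosine kinase that acts on the actin skeleton and on DNA damage responses. Its normalized counts were 256, 206, 318, 356, 415 and 472 in controls and 460, 223, 199, 216, 280 and 312 in BDS. Only BDS 25 lay below the lowest control, and BDS 7 lay near the highest control. The means of 337 ± 98.8 and 282 ± 97.4 (SD, n = 6) gave a log2 fold change of -0.26 ± 0.23 (SE; edgeR, adjusted p = 0.61). It was -0.083 with BDS 21, BDS 25 and BDS 55 left out (edgeR, unadjusted p = 0.78), and -0.0069 with the housekeeping count as a covariate. Without BDS 7 it was -0.45 (edgeR, unadjusted p = 0.041, adjusted p = 0.17), where 95 of 351 genes had an unadjusted p under 0.05 as given for Ptprc.

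Ptk2 encodes focal adhesion kinase, which binds Src at integrin contacts. Its normalized counts were 74.3, 82.2, 103, 105, 128 and 124 in controls and 147, 135, 92.5, 64.8, 98.9 and 124 in BDS. BDS 7 and BDS 21 lay above every control and BDS 35 below every control. The means of 103 ± 21.6 and 110 ± 30.5 (SD, n = 6) gave a log2 fold change of 0.097 ± 0.20 (SE; edgeR, adjusted p = 0.81), which was -0.0082 without BDS 7 and 0.010 with BDS 21, BDS 25 and BDS 55 removed. Within a sample, the log2 ratio of Abl1 to Ptk2 was 1.69 ± 0.20 in controls and 1.34 ± 0.38 in BDS (SD, n = 6). BDS 21 at 0.73 and BDS 25 at 1.10 lay below every control, and the difference of -0.35 was -0.22 without BDS 21 and -0.059 without the 3 samples of low housekeeping count.

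**Figure D3:**
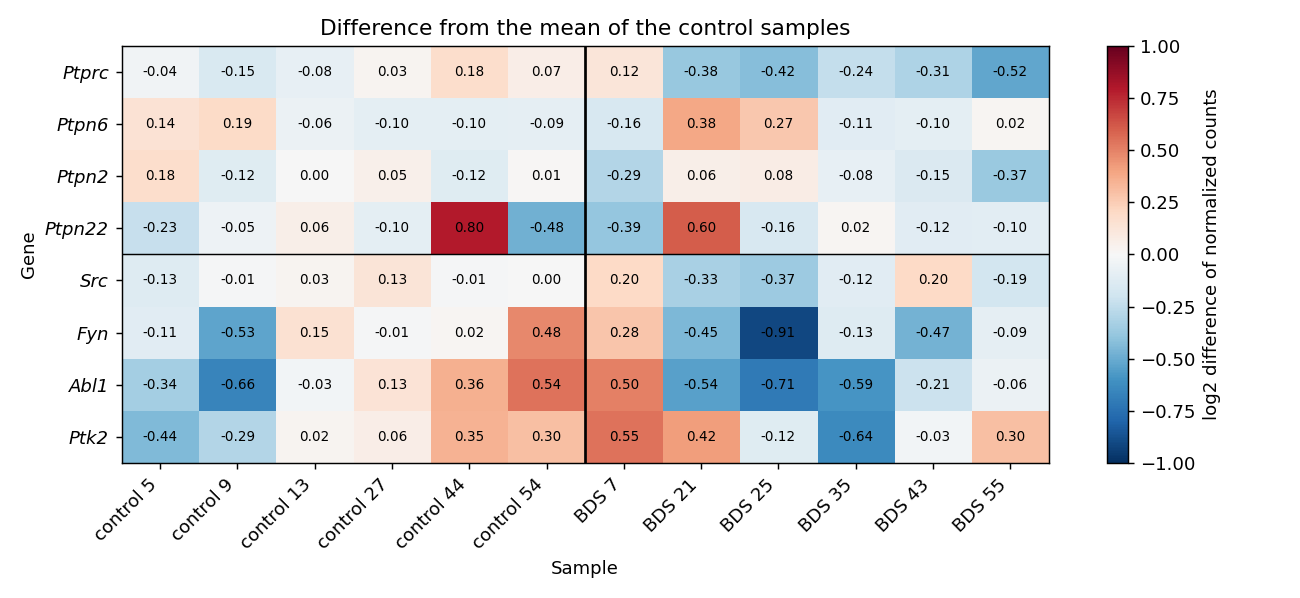
Log2 difference of normalized counts from the mean of the 6 control samples for each gene (rows, phosphatases above the horizontal line and kinases below it) and sample (columns, controls left of the vertical line). BDS 7 is above 0 for Ptprc and all 4 kinases, at 0.12 to 0.55, and below 0 for Ptpn6, Ptpn2 and Ptpn22, while BDS 25 is below 0 for all of the genes except Ptpn6 and Ptpn2.

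The samples also had profiles of their own across the 8 genes. BDS 7 had Ptprc, Src, Fyn, Abl1 and Ptk2 above the control mean, by 0.12 to 0.55 on the log2 scale, and the 3 PTPN phosphatases below it, by -0.16 to -0.39. BDS 25 went the other way for most of them, with Fyn at -0.91 and Abl1 at -0.71 and Ptpn6 at 0.27. Control 9 also had low Fyn (-0.53) and Abl1 (-0.66) with high Ptpn6 (0.19), so such a profile was not confined to BDS samples. Of the 8 genes, 7 had a larger coefficient of variation in BDS than in controls, as did 70.3% of all genes tested, and 4 of the 8 without BDS 7. Abl1 and Ptpn22 varied the most among controls, at 29.3% and 34.3%, where counting error gives 5.09% and 10.2%. These counting errors do not include the 5 rounds of amplification.

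**Figure D4:**
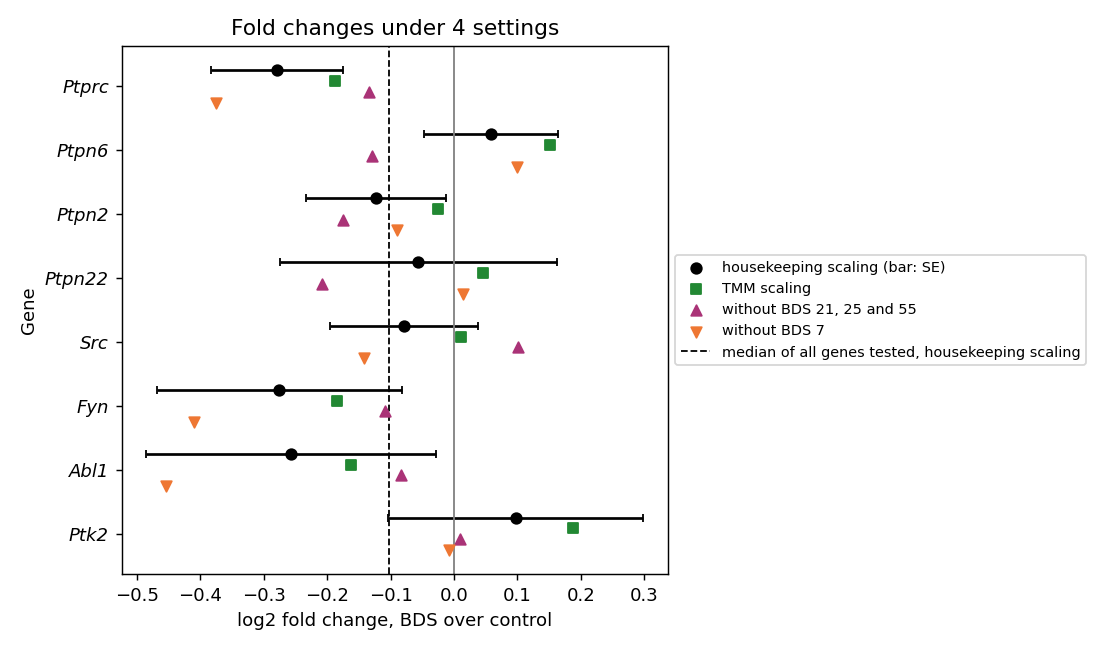
Log2 fold change of BDS over control for each gene (points) under housekeeping scaling with its SE, TMM scaling, without 3 BDS samples of low housekeeping count and without BDS 7, with the median of all 357 genes at -0.10 as a dashed line. Ptprc, Ptpn2, Fyn and Abl1 are below 0 in all 4, Ptpn6, Ptpn22, Src and Ptk2 change sign in at least 1 of them, and all 4 genes that keep their sign move toward 0 with TMM scaling.

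Genes that act with these enzymes were read from the same comparison, in which 0 of them passed the adjusted threshold. Their counts stand beside 66.1% of all genes tested below 0 and 12.3% at an unadjusted p under 0.05, of which 41 of 44 were lower in BDS. Of 8 other cytoplasmic tyrosine kinases on the panel, 7 were tested and 6 had log2 fold changes below 0, with a median of -0.10. At an unadjusted p under 0.05 there was 1, Lck, a Src-family kinase of T cells. It had 34.3 ± 6.5 and 23.7 ± 4.5 normalized counts (SD, n = 6), close to background, and a log2 fold change of -0.53 (edgeR, adjusted p = 0.25). Jak3 and Tyk2, kinases of cytokine receptors, were at -0.27 and -0.11. Of the STAT factors and Socs proteins that the JAK kinases drive, 8 of 9 were tested, 6 were below 0, and the median was -0.18. Of the list, 2 were at an unadjusted p under 0.05, both lower in BDS, among them Stat5a at 362 ± 19.2 and 306 ± 46.1 normalized counts (SD, n = 6; log2 fold change -0.24, edgeR, adjusted p = 0.38). Stat3, a factor of interleukin-6 type cytokines, was at -0.20.

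Receptors above and adaptors beside the Src-type kinases were read in the same way, and differences between lists were not tested. Of 13 tested activating immunoreceptors and adaptors, 5 were below 0 and the median was 0.15. Cd3eap, counted among these 13, encodes an RNA polymerase subunit and is no immunoreceptor. Fcgr1, a high-affinity Fc receptor, was at a log2 fold change of -0.13 (edgeR, unadjusted p = 0.039, adjusted p = 0.38). Blnk and Tyrobp, adaptors of immunoreceptor signalling, were at 0.17 and 0.20. Of 9 tested genes listed as inhibitory receptors that recruit phosphatases with SH2 domains, 8 were below 0, with a median of -0.18. Cd274, counted among these 9 at -0.13, encodes a ligand of the receptor Pdcd1 and is no such receptor. Fcgr2b, the inhibitory Fc receptor, was at -0.33 (edgeR, unadjusted p = 0.042, adjusted p = 0.38), Lilrb3 at -0.33 and Pecam1 at -0.15. Lilrb3 was close to background, at 35.2 ± 5.28 and 27.9 ± 6.45 normalized counts (SD, n = 6; edgeR, unadjusted p = 0.087, adjusted p = 0.43). Of 13 tested integrins and adhesion receptors, 7 were below 0 beside 66.1% of all genes, with a median of -0.13. Icam1, Icam2, Cd9 and Cd81, counted among these 13 at 0.084, 0.038, 0.022 and 0.013, are no integrin chains, nor is the tetraspanin Cd82. Of the 13, 2 had an unadjusted p under 0.05, Cd82 at -0.34 and the integrin chain Itgb1 at -0.20 (edgeR, adjusted p = 0.17 and 0.25). Itga6, an integrin chain that pairs with Itgb1, was at -0.29.

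For each gene the panel was searched for the other genes whose log2 values, set relative to their mean over the 12 samples, lay nearest on average. The nearest to Ptprc were Emr1, the gene of the macrophage marker F4/80, and Il10ra, with mean absolute differences of 0.076 and 0.079 on the log2 scale, against a median of 0.24 over 349 genes. Ptpn6 lay nearest to Tgfb1 at 0.037 and to Ctss at 0.053. Ptpn2 lay nearest to Il7r and Rela (0.084 and 0.086), and Src to Irak4 and Il10ra (0.082 and 0.084). Mapk14 was among the genes nearest to Abl1 (0.10). Fyn lay nearest to Irf4 and Cd86 (0.12 and 0.15), and Ptk2 to Ikbkb and Irf8 (0.14 for both). Ptpn22 had no gene nearer than 0.20, the value for Csf2rb and Stat5b. These distances share the scaling factors of the samples, are smaller for genes that vary little, and are a description only.

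The authors' deposited table lists all 8 genes as above background in 100% of samples. In the authors' deposited table the fold of BDS over control was 0.83 for Ptprc, 0.83 for Fyn, 0.84 for Abl1, 0.93 for Ptpn2, 0.95 for Src, 0.98 for Ptpn22, 1.05 for Ptpn6 and 1.08 for Ptk2. The unadjusted p in the authors' deposited table was 0.026 for Ptprc and 0.23 or above for the other 7.

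Markers of other leukocytes, which also express Ptprc, Ptpn6, Ptpn22 and Fyn, were read beside these values. The 17 T cell markers on the panel summed to 5389 to 6409 normalized counts in controls and 4892 to 5959 in BDS, of which Il7r, a cytokine receptor chain, had 5102 and 4682 on average, and 7 of the 17 were above background in no sample. The 8 B cell markers summed to 221 to 330 in controls and 198 to 439 in BDS, with 3 above background in no sample. The 4 markers of blood monocytes and border macrophages summed to 294 to 502 and 258 to 454, with Ccr2 at 377 and 292 on average and the other 3 above background in no sample. The part of these cells in the values of the 8 genes was not tested.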

How the data were processed

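From each of 12 samples, 2 ng of RNA went through 5 rounds of PCR before hybridization, per the labels' protocols. The raw barcode counts are deposited without normalization. In the second deposited table the authors' values, scaled by positive-control and housekeeping probes and then rounded, are treated as scores. Per the file headers it adds group mean scores, a fold (ratio of means), an unadjusted p-value and the percent of samples over background. The software that counted barcodes was not given in the labels or files.

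Each sample's scaling factor was the geometric mean count of 6 housekeeping genes (Alas1, Gapdh, Oaz1, Polr1b, Sdha and Tbp) over its geometric mean across samples. Genes above background in at least 40% of samples (5 of 12) were tested with edgeR 4.0.16 in R 4.3.3 (quasi-likelihood test, no covariates, Benjamini-Hochberg over 357 genes). The test was checked only on counts simulated under the type of model that it fits, which does not measure its error rate on the real counts. DESeq2 1.42.0, limma 3.58.1 with pseudocounts of 1 and 10, other scalings, filters, covariates and left-out samples were alternatives. No replicate number is shared by the groups, so no pairing was used. The genes and lists were chosen with earlier results of these data known. From each pathway list up to 3 genes of smallest p were named, and for each of the 8 the 2 nearest other genes. Some genes that this rule names are not reported here. Counts of different probes are not compared as amounts of transcript, since probes differ in efficiency. Ratios and distances were given no test.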

Additional observations from a re-analysis of the deposited data

Results flagged for a closer look

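Both values that stood far from the other 5 samples of their group belonged to Ptpn22, among 26 groups of values checked, and about 1 in 20 groups would show such a value by chance. Control 44 was high at 146 normalized counts, from 153 raw counts. The summed NK cell markers of that sample were 506 normalized counts, the highest of all samples. Among the NK cell markers tested, Prf1 varied most in controls, at 125 ± 99.8 normalized counts (SD, n = 6). BDS 21 was high at 128 normalized counts, from 78 raw counts, which lay within the raw range of 49 to 100 of the BDS group, since its scaling factor was 0.609. The summed B cell markers of BDS 21 were 439 normalized counts, also the highest, with 2 of the 8 above background in that sample. Its summed microglia markers were the highest of all samples as well, at 205413 normalized counts. What part these play was not tested.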

How the results depend on the processing

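Ptprc kept its sign in 27 of 27 alternatives and an unadjusted p under 0.05 in 23. It ran from -0.37 to -0.24 with 1 sample left out, and only without BDS 7 passed the adjusted threshold, at -0.37. With 1 sample left out Ptpn6 ran from -0.014 to 0.10, Ptpn22 from -0.20 to 0.15 and Ptk2 from -0.0082 to 0.21. Ptpn6 turned to -0.13 without BDS 21, BDS 25 and BDS 55, to -0.10 with the housekeeping count as a covariate, to -0.17 with the Rpl19 to Polr2a ratio and to -0.068 with TMM without those 3 samples. Ptpn22 turned to 0.046 with TMM and to 0.039 with the size factors of DESeq2. Src turned to 0.012 with TMM, 0.011 with the size factors of DESeq2, 0.10 without the 3 samples, 0.058 with the housekeeping count, 0.12 with the Rpl19 to Polr2a ratio and 0.16 with TMM without the 3 samples. With the Rpl19 to Polr2a ratio Fyn turned to 0.039 and Abl1 to 0.17. The cause was not tested. The last covariate and TMM without the 3 samples were chosen after seeing the data.

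Genes at an unadjusted p under 0.05 numbered 44, but 27 with the size factors of DESeq2, 20 without the 3 samples, 22 with the housekeeping count, 20 with the Rpl19 to Polr2a ratio, 8 with TMM without the 3 samples and 26 to 95 with 1 sample left out. Of the 8 genes described, 1 was among them, but 0 without the 3 samples, with the housekeeping count or with TMM without the 3 samples, and 1 to 3 with 1 sample left out. With the Rpl19 to Polr2a ratio the 1 gene was Ptpn6 and no longer Ptprc. Past the adjusted threshold there were 0 genes, 6 with DESeq2 on housekeeping factors and 0 to 4 with 1 sample left out. Of the 8 genes, 7 varied more in BDS, and 4 to 8 with 1 sample left out. Mean raw counts of 98.7 and 75.3 for Ptpn22 and of 120 and 101 for Ptk2 limit their precision, with counting errors of 10.2% and 9.27% of the control mean. No paired analysis was possible because the groups share no replicate number.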
